A study of Mus musculus with 15 samples.

Results

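Messenger RNA of 9 genes for inhibitory receptors and checkpoint ligands was followed in mouse bone marrow cells. The 9 are Cd274, Pdcd1lg2 and Cd47, which encode ligands, and Sirpa, Pirb, Lilrb4a, Lair1, Havcr2 and Cd200r1, which encode receptors. They were taken by gene symbol from a table of 17030 genes, and all 9 were found there and passed the filter on low values. The table covered 15 libraries in 5 groups of 3. CAR macrophages were labelled with CAR expression and CAR treatment, and control-CAR macrophages with Control-CAR expression and treatment. Hoxb8 macrophages, BMDM (bone marrow-derived macrophages) and progenitor cells were wild type and untreated, and all groups were labelled as primary bone marrow cells. A CAR, or chimeric antigen receptor, is an engineered receptor that directs an immune cell to a chosen antigen, and the transcription factor Hoxb8, when expressed in myeloid progenitors, lets them keep growing in culture before they are differentiated. The labels used here give no age, promoter, clone or culture for any group. Nothing in them says that the 3 libraries of a group were separate cultures or animals. The p-values therefore set a change against the spread between these libraries, estimated over all 15, and that spread may be technical.

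Inhibitory receptors set the threshold at which a myeloid cell attacks, engulfs or secretes. Most carry cytoplasmic tyrosine motifs that recruit the phosphatases SHP-1 and SHP-2, encoded by Ptpn6 and Ptpn11, while CD200R works through Dok adaptors and RasGAP, and TIM-3 has no such motif. Macrophages also carry checkpoint ligands on their own surface. PD-L1 and PD-L2 restrain T cells through PD-1, and CD47 restrains phagocytes through SIRPα, the axis that many approaches to macrophage therapy of tumours aim at.

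The promoters of 3 of the genes are shown: Cd274 and Pdcd1lg2 are neighbours that were both called higher in CAR than in control-CAR macrophages, a call that Pdcd1lg2 lost without 1 control-CAR library and after quantile normalisation, and Pirb separated macrophages from progenitors most. Each line holds 300 bases of the RefSeq window of build GRCm38.p6, 250 before to 50 after a transcript start, 5′ to 3′, with matches to searched motifs in capitals. The Cd274 window lies at chr19:29367188-29367487 (plus strand), that of Pdcd1lg2 at chr19:29410669-29410968 (plus strand) and that of Pirb at chr7:3720333-3720632 (minus strand).
Cd274: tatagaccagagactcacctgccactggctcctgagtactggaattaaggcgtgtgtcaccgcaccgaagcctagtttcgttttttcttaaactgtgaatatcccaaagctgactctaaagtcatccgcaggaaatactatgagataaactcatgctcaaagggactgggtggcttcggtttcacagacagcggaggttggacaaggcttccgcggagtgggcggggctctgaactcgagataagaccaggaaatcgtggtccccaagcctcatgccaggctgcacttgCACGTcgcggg
Pdcd1lg2: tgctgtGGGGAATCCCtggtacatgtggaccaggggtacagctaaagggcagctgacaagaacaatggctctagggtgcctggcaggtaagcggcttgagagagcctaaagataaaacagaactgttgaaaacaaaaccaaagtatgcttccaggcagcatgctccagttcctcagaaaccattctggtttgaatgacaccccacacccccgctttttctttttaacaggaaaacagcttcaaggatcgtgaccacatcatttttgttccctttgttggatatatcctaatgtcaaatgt
Pirb: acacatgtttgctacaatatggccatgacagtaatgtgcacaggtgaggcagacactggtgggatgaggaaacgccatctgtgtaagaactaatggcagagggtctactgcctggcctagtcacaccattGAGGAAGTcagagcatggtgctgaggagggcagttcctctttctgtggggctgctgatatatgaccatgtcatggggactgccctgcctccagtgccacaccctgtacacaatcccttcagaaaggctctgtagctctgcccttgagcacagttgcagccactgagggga

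The capitals mark a hypoxia response core (ACGTG, here on the minus strand) that starts 40 bases after the transcript start of the Cd274 window. They also mark a kappaB site 244 bases before the Pdcd1lg2 start and a PU.1 core (GAGGAAGT) 120 bases before the Pirb start. The Cd274 window lies inside the gene span given below, as do those of Cd47 and Lair1. For Cd274, Cd47 and Lair1, bases outside the gene span were not searched. Both strands were searched for 5 motifs in the windows of the 6 genes that have one in the table, 7 windows in all, since Cd47 has 2 overlapping ones; Sirpa, Lilrb4a and Cd200r1 have none. The IRF element, a direct repeat of GAAA, and the GAS element (TTCNNNGAA), bound by interferon-regulated factors, matched in 0 of the 6 genes, and in 3.44% and 8.30% of 32851 RefSeq windows of the same length. The PU.1 core also matched in Havcr2, 8 bases before its start, and the hypoxia core in Havcr2 and in Cd47. These cores occur in 3.2% and 19.6% of all windows, and the kappaB site in 8.46%. A match describes letters in a window, and no match says only that these letters are absent from it.

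In the same build, Cd274 (gene ID 60533) lies on chromosome 19 from 29362107 to 29388095, and Pdcd1lg2 (58205) follows it from 29410919 to 29472927, with 22823 bases between them. Cd47 (16423) lies on chromosome 16 from 49851328 to 49912503, as does Cd200r1 (57781), from 44765736 to 44794977. Pirb (18733) and Lair1 (52855) share chromosome 7, from 3712505 to 3720382 and from 4007073 to 4073567. Sirpa (19261) lies on chromosome 2 from 129591042 to 129632228, Lilrb4a (14728) on chromosome 10 from 51490898 to 51496613, and Havcr2 (171285) on chromosome 11 from 46454931 to 46481255. All are annotated as protein coding.

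Levels are the authors' FPKM values (read fragments per unit of transcript length and of library size), and changes are log2 ratios with standard errors (SE) from edgeR's quasi-likelihood test on estimated counts with TMM scaling. Libraries held 16962839 to 19221681 estimated counts. A gene was called at a Benjamini-Hochberg adjusted p under 0.05 over the 11793 genes that reached 1 FPKM in at least 3 libraries. The scaling sets the zero of every change: with library totals in place of TMM, the median over the tested genes shifted by a log2 of 0.31 between CAR and control-CAR macrophages, and with TPM by 0.45. Between Hoxb8 macrophages and progenitors these shifts were -0.74 and -0.91, and between BMDM and progenitors -0.64 and -0.71. For CAR against control-CAR macrophages, 4946 genes were called higher and 4334 lower under TMM, and 8018 and 1933 under TPM. A ratio of FPKM can therefore differ from the modelled change, and directions that turn are named. In bulk RNA, fewer cells of a type and less RNA per cell cannot be told apart.

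**Figure D1:**
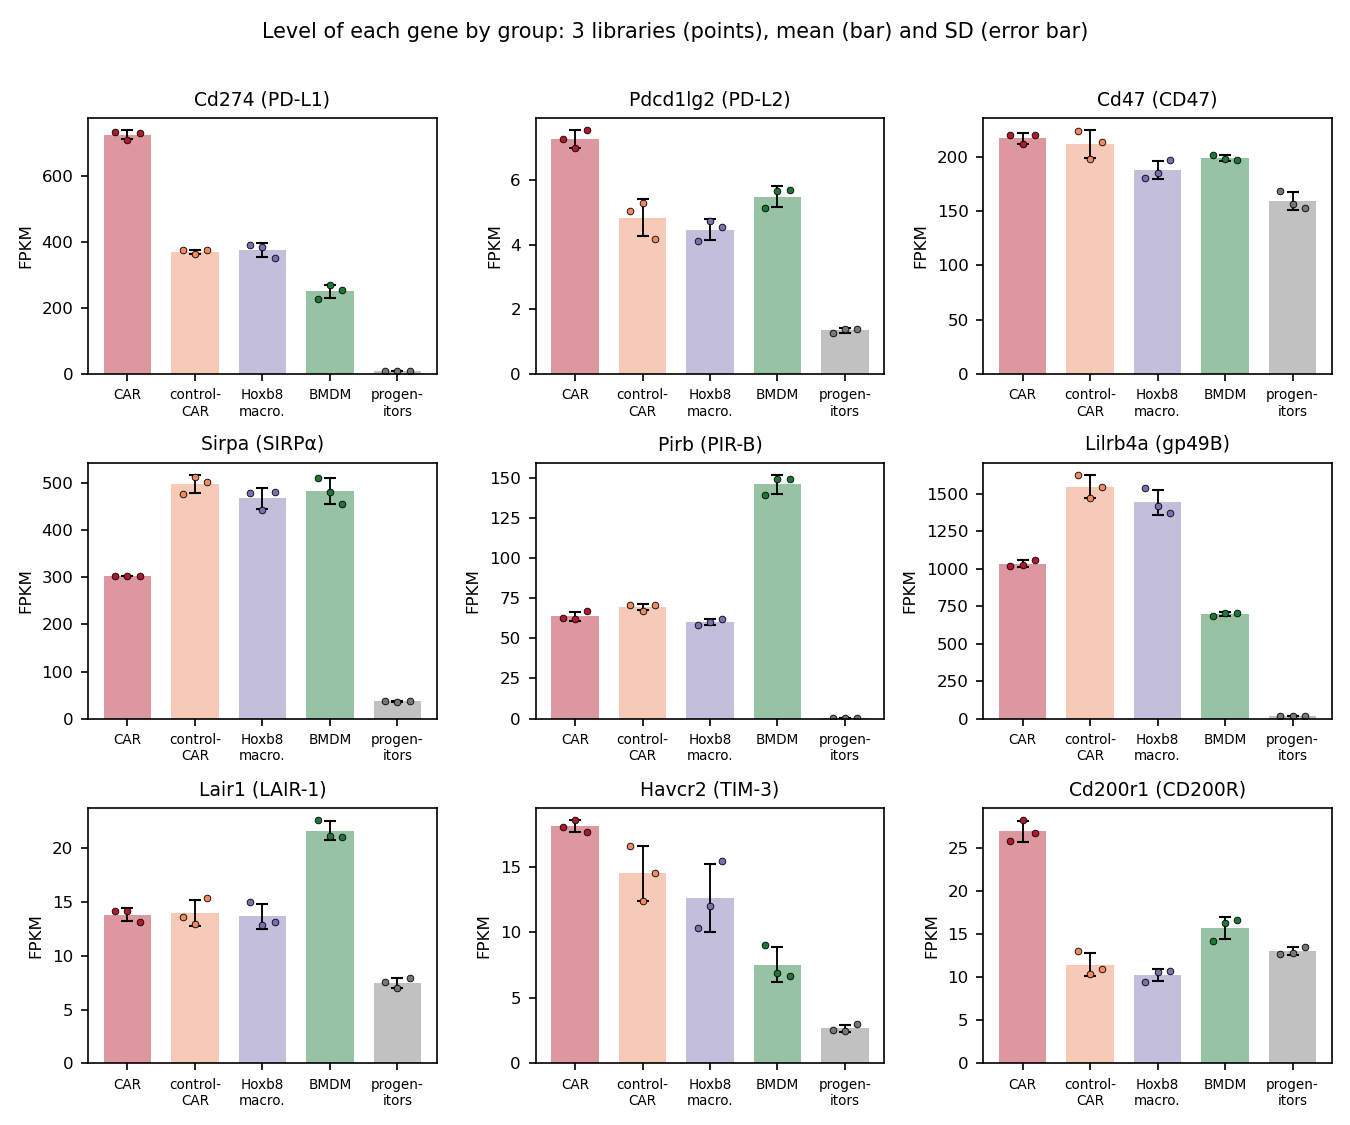
FPKM of each of the 9 genes (vertical axes, linear, from 0, with a range of their own) in the 5 groups, with points for the 3 libraries, bars for the mean and error bars for the SD. Cd274, Pdcd1lg2, Cd47, Havcr2 and Cd200r1 had their highest mean in CAR macrophages, Pirb and Lair1 in BMDM, and Sirpa and Lilrb4a in control-CAR macrophages. Cd47 spans the narrowest range, and its CAR and control-CAR libraries overlap.

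The messenger of PD-L1, the main ligand of PD-1, was higher in CAR macrophages than in any other group. Cd274 was at 732, 708 and 729.6 FPKM in the 3 CAR libraries, against 373, 362 and 373 FPKM in the control-CAR libraries. Every CAR library lay above every control-CAR library. The modelled change was a log2 of 0.66 (SE 0.065), a fold of 1.58, with an adjusted p of 2.81e-08 from edgeR with Benjamini-Hochberg adjustment, and it ran from 0.63 to 1.21 over the other scalings and filters, all called. The change stood at the 53.8th percentile of absolute changes over all tested genes, so many genes moved further in this comparison.

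Cd274 was at 389, 385 and 349.6 FPKM in Hoxb8 macrophages, at 228, 267 and 254 FPKM in BMDM and at 8.63, 7.14 and 8.02 FPKM in progenitor cells. Hoxb8 and control-CAR macrophages overlapped, and the other neighbours in the order of levels did not. The highest group mean, in CAR macrophages, was 91.2 times the lowest, in progenitors. PD-L2, the other ligand of PD-1, was far scarcer. Pdcd1lg2 was at 7.27, 7.0 and 7.53 FPKM in CAR macrophages, against 5.03, 5.30 and 4.18 FPKM in control-CAR macrophages, with no overlap. Its log2 change was 0.28 (SE 0.087) with an adjusted p of 0.00688 from edgeR, and the call was lost without control-CAR replicate 3 (log2 0.19, adjusted p = 0.0577) and after quantile normalisation (log2 0.047, adjusted p = 0.568).

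Pdcd1lg2 lay between 4.10 and 4.73 FPKM in Hoxb8 macrophages, between 5.12 and 5.68 FPKM in BMDM and between 1.25 and 1.4 FPKM in progenitor cells. CAR macrophages came first and progenitors last, and in between BMDM overlapped control-CAR macrophages, which overlapped Hoxb8 macrophages. The FPKM ratio of Cd274 to Pdcd1lg2 was 99.6 ± 2.33 in CAR macrophages, 77.3 ± 10.9 in control-CAR macrophages, 84.5 ± 9.23 in Hoxb8 macrophages, 45.5 ± 1.54 in BMDM and 5.94 ± 0.909 in progenitor cells (SD, n = 3 each). PD-L1 messenger thus exceeded PD-L2 messenger in every group, by most in CAR macrophages and by least in progenitors.

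CD47, the ligand that tells phagocytes to hold back, is carried by nearly all cells, and its messenger varied least among the 9. Cd47 was at 220.0, 212 and 220.0 FPKM in CAR macrophages, against 223, 199 and 214 FPKM in control-CAR macrophages, and these ranges overlapped. The model called it lower (log2 -0.21, SE 0.056, edgeR adjusted p = 0.00275), but the change turned to 0.10 under library totals, 0.037 under FPKM and 0.28 under TPM, where it was called higher (adjusted p = 0.000172). In the other groups Cd47 lay between 181 and 197 FPKM in Hoxb8 macrophages, between 197 and 202 FPKM in BMDM and between 153 and 169 FPKM in progenitor cells. The highest group mean was 1.36 times the lowest.

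Sirpa encodes SIRPα, the receptor that CD47 engages on macrophages, and it was lower in CAR macrophages. It was at 303, 304 and 302 FPKM in the CAR libraries, against 478, 514 and 504 FPKM in the control-CAR libraries. The ranges were far apart, and the CAR libraries were tightly grouped. The log2 change was -1.03 (SE 0.067, edgeR adjusted p = 8.26e-11), the largest fall among the 9, and it was lower and called under the 7 scalings tried, down to -0.48 under TPM. Sirpa lay between 443 and 482 FPKM in Hoxb8 macrophages, between 457 and 512 FPKM in BMDM and between 35.7 and 37.8 FPKM in progenitor cells. The ranges of control-CAR macrophages, BMDM and Hoxb8 macrophages overlapped. The FPKM ratio of Sirpa to Cd47 was 1.4 ± 0.0358 in CAR macrophages, 2.36 ± 0.225 in control-CAR macrophages, 2.50 ± 0.134 in Hoxb8 macrophages, 2.43 ± 0.110 in BMDM and 0.233 ± 0.0117 in progenitor cells (SD, n = 3 each).

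Lilrb4a encodes gp49B, an inhibitory receptor of mouse macrophages and mast cells, and it was the most abundant of the 9 in each of the 4 macrophage groups. It was at 1018, 1022 and 1059.7 FPKM in CAR macrophages, against 1625, 1472 and 1545 FPKM in control-CAR macrophages. No library of either group reached the range of the other. The log2 change was -0.90 (SE 0.055, edgeR adjusted p = 3.42e-11) and stayed called as lower under the 7 scalings, with -0.34 under TPM. Lilrb4a lay between 1373 and 1538 FPKM in Hoxb8 macrophages, which overlapped control-CAR macrophages, between 685 and 707 FPKM in BMDM and between 15.9 and 17.5 FPKM in progenitor cells. Its near copy Lilr4b, added after values were seen because reads may be split between the copies, was at 209 ± 5.90 FPKM in CAR macrophages and 266 ± 37.8 FPKM in control-CAR macrophages (SD, n = 3 each; log2 -0.70, SE 0.069). The FPKM ratio of Lilrb4a to Lilr4b ranged from 4.91 to 4.98 in CAR macrophages, from 5.25 to 6.23 in control-CAR macrophages and from 2.63 to 3.18 in progenitor cells. How the counting assigned reads shared by such copies is not given in the sources used here, so the level of each copy is uncertain.

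Pirb encodes PIR-B, which binds MHC class I molecules. Its level in CAR macrophages was 62.4, 61.9 and 66.8 FPKM, against 70.5, 67.1 and 70.9 FPKM in control-CAR macrophages. The groups lay close to each other without overlap. The log2 change was -0.43 (SE 0.048, edgeR adjusted p = 1.62e-07), was -0.12 under library totals and FPKM, and turned to 0.11 under TPM (adjusted p = 0.0195). BMDM stood above the rest at 139, 149 and 149 FPKM, Hoxb8 macrophages lay between 58.5 and 62.0 FPKM, overlapping CAR macrophages, and progenitor cells were at 0.36, 0.36 and 0.33 FPKM. The highest group mean was 417 times the lowest, the widest span of the 9 genes. Pirb shares sequence with the activating Pira genes. The FPKM ratio of Pirb to Pira2 was 1.79 ± 0.0449 in CAR macrophages, 1.73 ± 0.0603 in control-CAR macrophages, 1.75 ± 0.0969 in Hoxb8 macrophages and 9.30 ± 0.973 in BMDM (SD, n = 3 each).

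Lair1 encodes LAIR-1, a receptor for collagens. It was at 14.2, 14.2 and 13.1 FPKM in CAR macrophages, against 13.6, 13.0 and 15.4 FPKM in control-CAR macrophages, and these ranges overlapped. The model called it lower (log2 -0.27, SE 0.078, edgeR adjusted p = 0.00448), with -0.013 and no call under FPKM, 0.044 and no call under library totals, and 0.22 with a call as higher under TPM. Hoxb8 macrophages overlapped both groups at 12.9 to 15 FPKM, BMDM lay above them at 21.1 to 22.7 FPKM, and progenitor cells lay below at 7.01 to 7.90 FPKM.

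Havcr2 encodes TIM-3, a receptor with several ligands that include galectin-9. It was at 18, 18.6 and 17.7 FPKM in CAR macrophages, against 16.6, 12.4 and 14.5 FPKM in control-CAR macrophages. The FPKM ranges did not overlap, yet the modelled log2 change was 0.019 (SE 0.13, edgeR adjusted p = 0.900), with a call as higher under library totals (0.33), FPKM (0.31) and TPM (0.54). The FPKM call needed a pseudocount of 1 and was lost with 0.1 (adjusted p = 0.0602). Havcr2 lay between 10.3 and 15.5 FPKM in Hoxb8 macrophages, overlapping control-CAR macrophages, between 6.64 and 9.07 FPKM in BMDM and between 2.49 and 3 FPKM in progenitor cells.

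Cd200r1 encodes CD200R, the receptor for CD200. It was at 25.8, 28.2 and 26.7 FPKM in CAR macrophages, against 13.0, 10.4 and 11.0 FPKM in control-CAR macrophages. All CAR libraries exceeded all others in the series. The log2 change was 0.93 (SE 0.074, edgeR adjusted p = 1.40e-09), a fold of 1.91 and the largest rise among the 9, and it ran from 0.86 after quantile normalisation to 1.42 under TPM. Cd200r1 lay between 9.48 and 10.7 FPKM in Hoxb8 macrophages, between 14.2 and 16.6 FPKM in BMDM and between 12.7 and 13.5 FPKM in progenitor cells, and it was the only gene of the 9 whose lowest group mean was not in progenitors. The related genes Cd200r4 and Cd200r3, which encode activating members of the family in mouse, were at 65.9 ± 0.206 and 114 ± 2.88 FPKM in CAR macrophages and 24.7 ± 2.78 and 12.1 ± 3.29 FPKM in control-CAR macrophages (SD, n = 3 each). Near copies within this family may share reads, so the level of each member is uncertain.

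For CAR against control-CAR macrophages, the model thus called 3 of the 9 higher (Cd274, Pdcd1lg2, Cd200r1) and 5 lower (Sirpa, Lilrb4a, Pirb, Lair1, Cd47), and Havcr2 was not called. Of all tested genes, 78.7% were called in this comparison, 41.9% higher and 36.8% lower, so a call by itself does not set the 9 apart. The FPKM ranges did not overlap for 7 of the 9 genes, and for 82.1% of all tested genes. The median log2 change of the 9 was -0.21, against 0.064 over all tested genes. Under TPM 7 of the 9 were called higher and 2 lower (Sirpa and Lilrb4a). Cd274 and Cd200r1 were called higher, and Sirpa and Lilrb4a lower, under each of the 7 scalings.

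**Figure D2:**
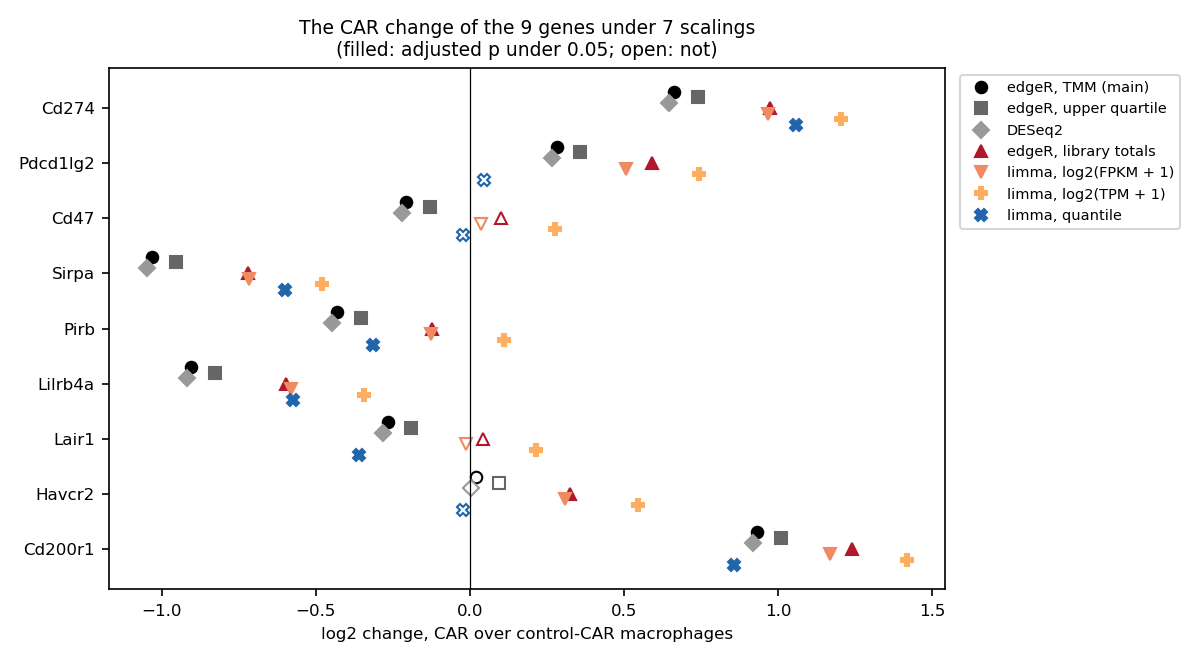
Log2 change of each of the 9 genes, CAR over control-CAR macrophages (horizontal axis), under 7 scalings or tests (symbols), filled where the adjusted p is under 0.05. Cd274 and Cd200r1 stay right of 0 and Sirpa and Lilrb4a left of it. Cd47, Pirb, Lair1 and Havcr2 cross it, with Cd47 running from -0.22 under DESeq2 to 0.28 under TPM.

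The markers of other cells moved in the same comparison. The summed FPKM of mast cell and basophil markers (9 of 10 listed genes were in the table) was 3748 to 3984 in CAR macrophages, against 437 to 477 in control-CAR macrophages. Macrophage markers, all 10 in the table, summed to 5679 to 5842 FPKM in CAR macrophages and 12180 to 13026 FPKM in control-CAR macrophages, and the model called 1 of the 10 higher and 9 lower. Mertk averaged under 1 FPKM in both groups. Neutrophil markers summed to 375 to 418 FPKM in CAR macrophages and 1782 to 2193 FPKM in control-CAR macrophages. Of the mast cell and basophil markers, Cpa3 and Fcer1a were at 2221 and 97.3 FPKM in CAR macrophages, against 28.2 and 0.0267 FPKM in control-CAR macrophages. The model called 8 of 8 tested genes of that list higher, while Mcpt4 averaged under 1 FPKM in both groups. In progenitor cells the list summed to 1562 to 1682 FPKM. Progenitor markers summed to 222 to 238 FPKM in CAR macrophages and 23.9 to 25.5 FPKM in control-CAR macrophages. The model called 6 of these 10 higher and 4 were not called. Flt3, Mpo and Elane averaged under 1 FPKM in both groups. The part of such cells in the values of the 9 genes was not tested.

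**Figure D3:**
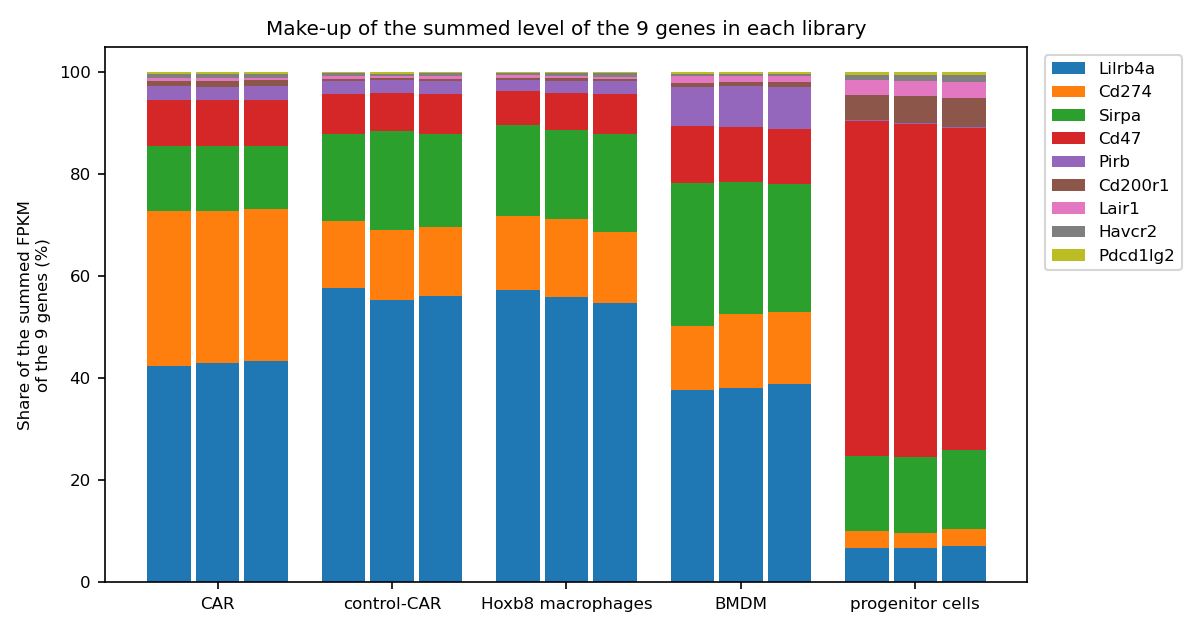
Share of the summed FPKM of the 9 genes (vertical axis, %) held by each gene in each of the 15 libraries, as stacked bars in 5 groups. Lilrb4a is the largest share in the 12 macrophage libraries and Cd47 the largest in the 3 progenitor libraries, and the Cd274 share is widest in CAR macrophages, at 30.1% against 13.5% in control-CAR macrophages.

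The mix of the 9 messengers differed in the CAR libraries. The 9 summed to 2406 ± 34.4 FPKM in CAR macrophages and 2742 ± 82.4 FPKM in control-CAR macrophages (SD, n = 3 each). Cd274 made up 30.1% ± 0.390 of that sum in CAR macrophages and 13.5% ± 0.207 in control-CAR macrophages, and Lilrb4a made up 42.9% ± 0.489 and 56.4% ± 1.13. Sirpa held 12.6% ± 0.213 in CAR macrophages and 18.2% ± 1.21 in control-CAR macrophages. In progenitor cells the 9 summed to 246 ± 9.55 FPKM, of which Cd47 alone held 64.7% ± 1.42. A share depends on the other 8 genes, so shares of different genes do not move independently.

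In control-CAR against Hoxb8 macrophages, 0 of the 9 were called, and 2.62% of all tested genes were called, 0.721% higher and 1.90% lower. Their log2 changes ran from -0.060 for Cd274 to 0.16 for Pirb. Pirb and Cd47 had an unadjusted p under 0.05, and theirs were the 2 ranges of the 9 that did not overlap, against 21.9% of all tested genes. Pirb was at 70.5, 67.1 and 70.9 FPKM in control-CAR macrophages, against 58.5, 60.3 and 62.0 FPKM in Hoxb8 macrophages (log2 0.16, SE 0.048, edgeR adjusted p = 0.0818). DESeq2 called 1 gene of the 9, Pirb (log2 0.16, adjusted p = 0.0498), as did library totals, FPKM, TPM and quantile normalisation, with adjusted p from 0.0120 to 0.0420. A p that misses the threshold does not show that the other levels were equal.

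All 9 genes were called higher in Hoxb8 macrophages than in progenitor cells, where 84.3% of all tested genes were called, 44.7% higher and 39.6% lower. The FPKM ranges lay apart for all 9 and for 88.5% of all tested genes. The log2 changes were 8.24 for Pirb (SE 0.086), 7.18 for Lilrb4a (SE 0.074), 6.39 for Cd274 (SE 0.085) and 4.53 for Sirpa (SE 0.078), with edgeR adjusted p of at most 9.09e-20. Havcr2 rose by 3.07, Pdcd1lg2 by 2.56, Lair1 by 1.59 and Cd47 by 0.99 on the same scale, though Cd47 stood at -0.061 and was not called under TPM. Cd200r1 was called higher (log2 0.49, SE 0.079, edgeR adjusted p = 1.28e-05) while its FPKM ran the other way, at 9.48, 10.6 and 10.7 in Hoxb8 macrophages against 12.7, 12.8 and 13.5 in progenitor cells. It was called lower under library totals (-0.34), FPKM (-0.32) and TPM (-0.61). The median of the 9 was 3.07, against 0.058 for all tested genes.

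All 9 were also called higher in BMDM than in progenitor cells, beside 87.3% of all tested genes called, 46.6% higher and 40.7% lower. The ranges of all 9 lay apart here too, as did those of 90.4% of all tested genes. This comparison shares its progenitor libraries with the one before. Pirb had the largest log2 change, 9.35 (SE 0.085), with Lilrb4a at 5.93, Cd274 at 5.64, Sirpa at 4.42, Pdcd1lg2 at 2.69, Havcr2 at 2.17 and Lair1 at 2.09. Cd200r1 stood at 0.94 and Cd47 at 0.93, and Cd200r1 lost its call under TPM (0.14, adjusted p = 0.1). Macrophage markers summed to 12613 to 13268 FPKM in Hoxb8 macrophages, 12849 to 14018 FPKM in BMDM and 332 to 363 FPKM in progenitor cells.

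In Hoxb8 macrophages against BMDM, 6 of the 9 genes were called, which is near the share of all tested genes. Of all tested genes, 70.3% were called, 32.0% higher and 38.3% lower. The FPKM ranges of 8 of the 9, all but Sirpa, did not overlap, as for 70.7% of all tested genes. Lilrb4a (log2 1.25, SE 0.056), Havcr2 (0.91, SE 0.14) and Cd274 (0.75, SE 0.065) were called higher, with edgeR adjusted p of 6.58e-13, 1.40e-05 and 8.51e-09. Pirb (-1.11, SE 0.048), Lair1 (-0.50, SE 0.076) and Cd200r1 (-0.45, SE 0.077) were called lower, with edgeR adjusted p of 3.79e-13, 1.06e-05 and 4.84e-05. Pdcd1lg2 (-0.13), Cd47 (0.056) and Sirpa (0.11) were not called, and under TPM these 3 were called lower as well (-0.42, -0.26 and -0.22). Pdcd1lg2 was also called lower under library totals (-0.30) and FPKM (-0.25, or -0.30 with a pseudocount of 0.1). Sirpa was also called lower after quantile normalisation (-0.12), and higher without BMDM replicate 1 (0.18, adjusted p = 0.0159). BMDM libraries also held the most neutrophil marker signal, 6149 to 12489 FPKM against 1290 to 1549 FPKM in Hoxb8 macrophages, and B cell markers at 30.3 to 55.2 FPKM against 0.150 to 0.310 FPKM, and the part of such cells in these differences was not tested.

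In CAR macrophages against BMDM, 5 of the 9 were called higher and 3 lower, beside 39.2% of all tested genes called higher and 37.8% lower (76.9% in all). The FPKM ranges of all 9 lay apart, as did those of 80.1% of all tested genes. Cd274 (log2 1.35, SE 0.066), Havcr2 (1.08, SE 0.14), Cd200r1 (0.60, SE 0.071) and Lilrb4a (0.37, SE 0.055) were higher, with edgeR adjusted p from 1.82e-12 to 6.58e-06. Pirb (-1.38, SE 0.048), Sirpa (-0.87, SE 0.067) and Lair1 (-0.80, SE 0.075) were lower, with edgeR adjusted p from 1.80e-14 to 2.13e-08. Pdcd1lg2 was called higher (0.23, SE 0.086, edgeR adjusted p = 0.0232), a call lost under DESeq2 (adjusted p = 0.0678), after quantile normalisation (0.0524), and without CAR replicate 1 (0.0529), CAR replicate 3 (0.0851) or BMDM replicate 1 (0.0580). Cd47 was not called (0.0085, SE 0.056), and was called higher under library totals (0.19), FPKM (0.12) and TPM (0.20). Mast cell and basophil markers summed to 3748 to 3984 FPKM in CAR macrophages and 427 to 497 FPKM in BMDM, and macrophage markers to 5679 to 5842 FPKM and 12849 to 14018 FPKM, with 8 of 10 called lower. Neutrophil markers summed to 375 to 418 FPKM in CAR macrophages and 6149 to 12489 FPKM in BMDM, and B cell markers to 0.37 to 0.62 FPKM and 30.3 to 55.2 FPKM. The part of such cells in these differences was not tested. The CAR libraries here are those also set against control-CAR macrophages, and the BMDM libraries those set against Hoxb8 macrophages and progenitors.

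**Figure D4:**
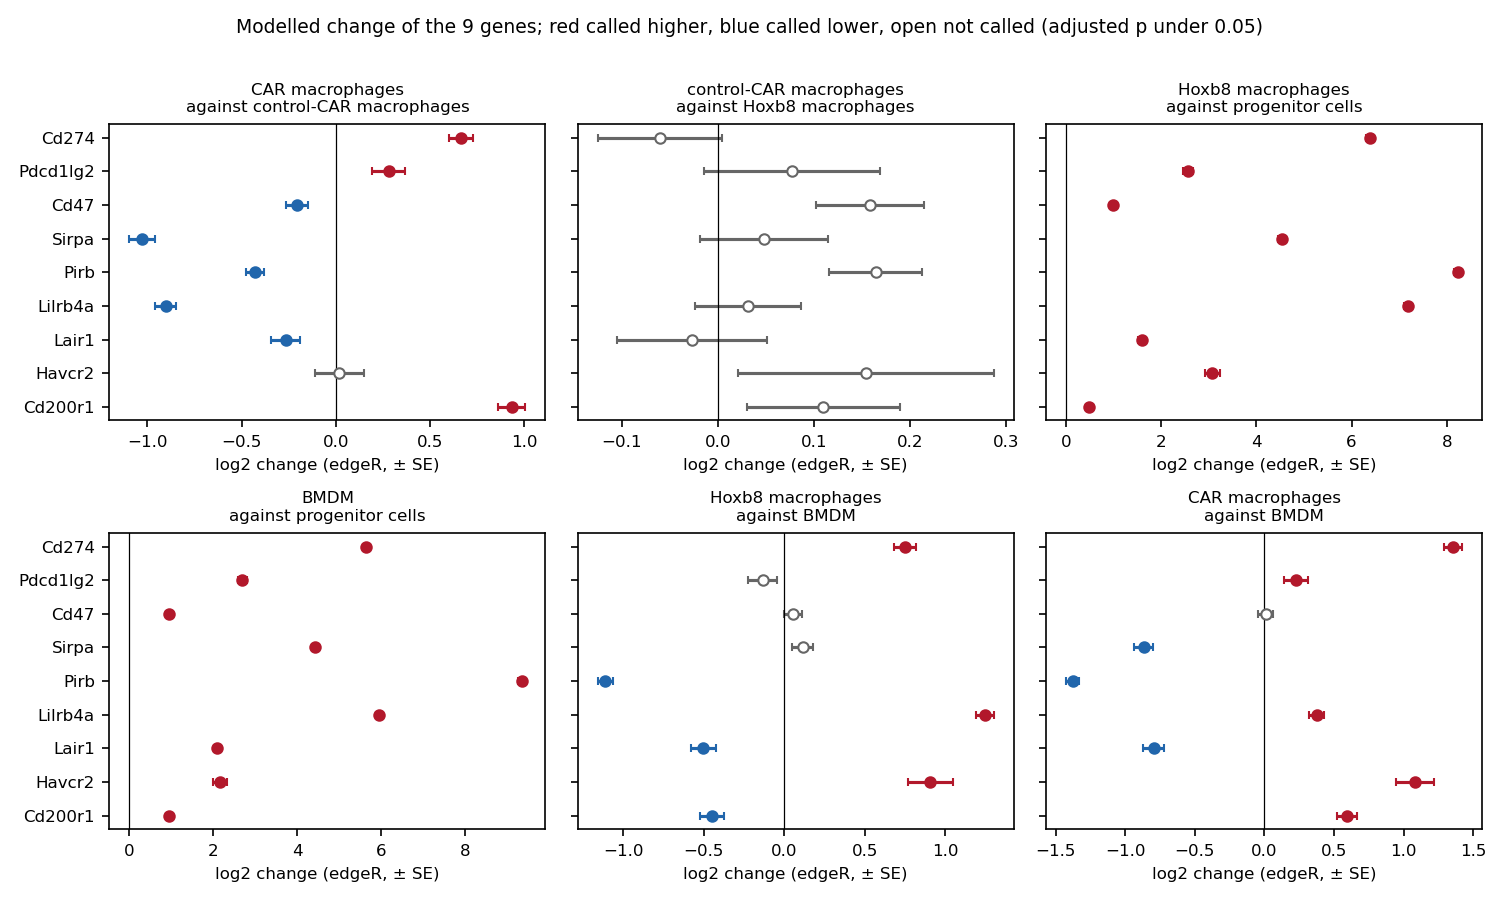
Modelled log2 change of the 9 genes (horizontal axes, edgeR with TMM, error bars ± SE) in 6 comparisons, red where called higher, blue where called lower and open where not called. All 9 points lie right of 0 against progenitor cells, all 9 are open between control-CAR and Hoxb8 macrophages, and both colours appear in the comparisons of CAR macrophages with control-CAR macrophages and of the macrophage sources with BMDM.

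The genes around the 9 were read from lists of their ligands, signalling proteins, regulators and relatives. Binding partners are the genes whose products the 9 bind or whose products bind them. Of 18 tested, 12 were called higher and 5 lower in CAR against control-CAR macrophages (12 and 4 under TPM), beside 41.9% of all tested genes called higher and 36.8% lower. The 12 called higher under TMM include Pdcd1. The median log2 change of the list was 1.04 when Rgmb is set at its lower bound and Pdcd1 is left out. The 5 of largest change include matrix genes. Fn1, which encodes fibronectin, had 6210, 6660 and 6377 counts in CAR libraries against 1, 2 and 2 in control-CAR libraries, and the collagen genes Col1a2, Col4a1 and Col1a1 had 2094 to 2170, 915 to 978 and 143 to 173 counts against 0 to 2, 1 to 2 and 0 to 1. Collagens are ligands of LAIR-1. Rgmb, which encodes a binding partner of PD-L2, had 189, 177 and 165 counts in CAR macrophages and 0 in all 3 control-CAR libraries, which makes it at least 46.1-fold higher, with 3 counts per library taken as the floor. Pdcd1, which encodes PD-1, had 2, 3 and 3 counts in CAR macrophages and 0 in control-CAR macrophages, at or under that floor, so no fold is given, and its call as higher was lost without any 1 of the 6 libraries (edgeR adjusted p from 0.0509 to 0.0800).

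Fibroblast markers, which share Col1a1, Col1a2 and Col3a1 with this list, summed to 52.6 to 53.8 FPKM in CAR macrophages and 17.4 to 20.6 FPKM in control-CAR macrophages. Of 7 tested, 4 were called higher and 2 lower. Col3a1, Pdgfra, Lum and Thy1 averaged under 1 FPKM in CAR macrophages. The part of such cells was not tested. Among the other partners, Cd200, the ligand of CD200R, averaged 0.567 FPKM in CAR macrophages and 0.0933 FPKM in control-CAR macrophages, against 17.8 FPKM in BMDM. Thbs1, which encodes thrombospondin-1, a ligand of CD47, was at 3800 ± 94.2 FPKM in CAR macrophages and 1626 ± 58.4 FPKM in control-CAR macrophages (SD, n = 3 each; log2 0.92, SE 0.077). Lgals9, which encodes the TIM-3 ligand galectin-9, was lower (log2 -0.50, SE 0.073). For MHC class I, the ligand of PIR-B, H2-D1 was higher (log2 1.04, SE 0.059) and H2-K1 was not called (0.054, SE 0.057), though its FPKM ranges lay apart, with means of 1746 in CAR macrophages and 1329 in control-CAR macrophages. These partners are named to cover the ligands of the 9, outside the rule of largest change.

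Of 12 inhibitory signalling genes tested, 1 was called higher and 9 lower in CAR against control-CAR macrophages, beside 41.9% of all tested genes called higher and 36.8% lower, and under TPM 5 were called higher and 4 lower, so the direction of the list depended on the scaling. They had a median log2 change of -0.56 against 0.064 for all tested genes. Ptpn6, the gene for the phosphatase SHP-1, was at 66.7 ± 0.0781 FPKM in CAR macrophages and 116 ± 3.82 FPKM in control-CAR macrophages (SD, n = 3 each), and its log2 change was -1.10 (SE 0.061). Dok2, the adaptor used by CD200R, was at 10.8 ± 1.16 and 30.0 ± 0.896 FPKM in the same order (log2 -1.81, SE 0.092). The Src family kinase gene Fgr (log2 -2.91, SE 0.13) and the lipid phosphatase gene Inppl1 (-0.83, SE 0.065) were also lower, with edgeR adjusted p of these 4 from 4.55e-13 to 1.11e-09. Fgr averaged under 1 FPKM in CAR macrophages. Ptpn11, the gene for SHP-2, was not called (0.13, SE 0.064), with mean FPKM of 36.6 in CAR macrophages and 27.1 in control-CAR macrophages that lay apart.

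Known regulators of PD-L1 and CD47 were split. Of 21 tested, 6 were called higher and 14 lower (12 and 8 under TPM), beside the same 41.9% and 36.8% of all tested genes, with a median log2 change of -0.24. Irf1, an interferon-induced transcription factor that drives PD-L1 transcription, was at 368 ± 6.78 FPKM in CAR macrophages and 28.5 ± 1.64 FPKM in control-CAR macrophages (SD, n = 3 each; log2 3.39, SE 0.073). Stat2 (log2 1.68, SE 0.081), which carries interferon signals to the nucleus, and Cmtm4 (1.71, SE 0.090), whose product keeps PD-L1 from degradation, were higher too, and the interferon gamma receptor chain gene Ifngr2 was lower (-1.26, SE 0.057). These 4 had edgeR adjusted p from 1.65e-17 to 4.02e-12. Qpctl, whose enzyme modifies CD47 so that SIRPα can bind it, was called lower by edgeR (log2 -0.19, SE 0.081, adjusted p = 0.0377), but its FPKM ranges overlapped, with means of 12.1 in CAR macrophages and 11.2 in control-CAR macrophages. It is named outside the rule of largest change.

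Of 18 other inhibitory receptors tested, 4 were called higher and 13 lower (4 and 11 under TPM), against 41.9% and 36.8% of all tested genes. The 4 called higher under TMM include Pdcd1, with 2, 3 and 3 counts in CAR macrophages and 0 in control-CAR macrophages. The median log2 change of the list was -1.22, or -1.45 without Pdcd1. Clec12a, an inhibitory C-type lectin, was at 4.11 ± 0.255 FPKM in CAR macrophages and 81.6 ± 2.28 FPKM in control-CAR macrophages (SD, n = 3 each; log2 -4.70, SE 0.075). Clec4a2 (log2 -3.43, SE 0.12), Cd72 (-3.36, SE 0.073) and Vsir, the gene for VISTA (-3.05, SE 0.072), were lower as well, and with Clec12a their edgeR adjusted p ran from 4.76e-19 to 9.59e-15. Other checkpoint ligands split into 4 higher and 6 lower of 10 tested (6 and 3 under TPM), beside the same shares of all tested genes. Cd86, whose protein binds CD28 and CTLA-4 as that of Cd80 does, was at 7.33 ± 0.599 FPKM in CAR macrophages and 0.163 ± 0.0651 FPKM in control-CAR macrophages (log2 5.19, SE 0.21), and Lgals3, the gene for galectin-3, at 1124 ± 39.9 and 221 ± 13.9 FPKM in the same order (log2 2.05, SE 0.093; SD, n = 3 each). Cd80 (log2 -1.47, SE 0.060) and Nectin2 (-1.37, SE 0.10) were lower, and Cd276 was higher (1.09, SE 0.27) but stood at -0.29 after quantile normalisation. Cd276 averaged under 1 FPKM in control-CAR macrophages.

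Activating relatives of the 9 gave 3 higher and 4 lower of 11 tested (5 and 2 under TPM), beside 41.9% of all tested genes called higher and 36.8% lower, and 4 of the 11 were not called. Cd200r3 (log2 3.0, SE 0.19), Lilra6 (1.16, SE 0.11) and Cd200r4 (1.09, SE 0.075) were higher, and Lilra5 (-3.12, SE 0.28) and Sirpb1b (-1.40, SE 0.27) were lower. Sirpb1b averaged 0.557 FPKM in CAR macrophages and 1.19 FPKM in control-CAR macrophages, and Lilra5 averaged under 1 FPKM in CAR macrophages. Near copies in these families may share reads. Tyrobp, whose adaptor protein DAP12 serves many activating receptors, was not called (log2 -0.066, SE 0.066). In control-CAR against Hoxb8 macrophages, 1 of 18 other inhibitory receptors (Cd72, log2 -0.25) and 1 of 10 other checkpoint ligands (Pvr, -0.22) were called, both lower and named after their values were seen, and 0 in the other 4 lists, beside 2.62% of all tested genes.

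**Figure D5:**
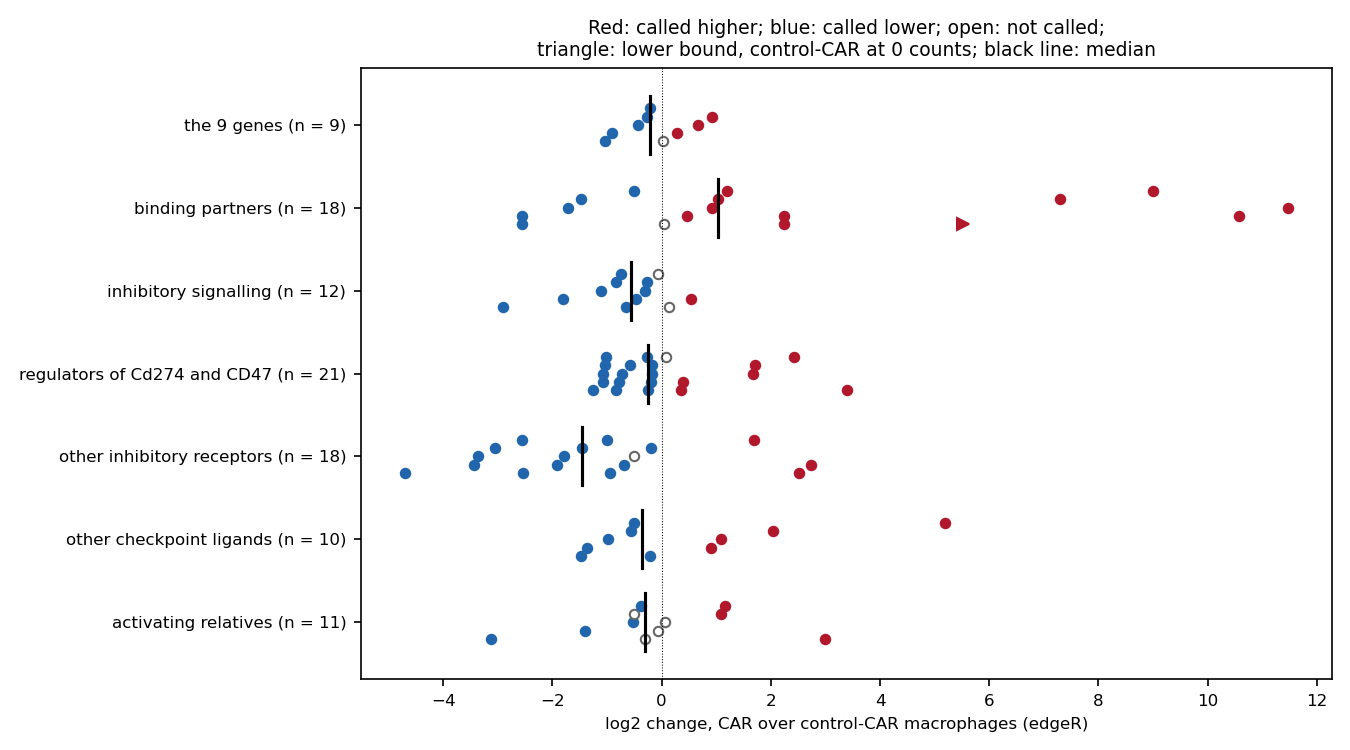
Log2 change of each tested gene, CAR over control-CAR macrophages (horizontal axis, edgeR), for the 9 genes and 6 lists around them (rows), red where called higher, blue where called lower and open where not called, with the median as a black line. The triangle is Rgmb at its lower bound, Pdcd1 is not drawn, and 4 further binding partners with 0 to 2 control-CAR counts are drawn at fitted values that depend on the model's prior count. The medians are 1.04 for binding partners, -0.56 for inhibitory signalling and -1.45 for other inhibitory receptors.

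The lists were also counted in the other comparisons. In Hoxb8 macrophages against progenitor cells, where 44.7% of all tested genes were called higher and 39.6% lower, 15 of 18 other inhibitory receptors were called higher and 3 lower, 18 of 21 regulators higher and 3 lower, 10 of 11 activating relatives higher and 0 lower, and 8 of 10 other checkpoint ligands higher and 2 lower. Binding partners gave 10 higher and 5 lower of 18, and inhibitory signalling genes 5 higher and 4 lower of 12, which is near the share of all tested genes. Under TPM regulators gave 10 higher and 7 lower, and inhibitory signalling genes 3 higher and 8 lower. In BMDM against progenitor cells, where 46.6% of all tested genes were called higher and 40.7% lower, the counts were 16 higher and 2 lower for other inhibitory receptors, 18 and 2 for regulators, 10 and 1 for activating relatives, 8 and 2 for other checkpoint ligands, 15 and 2 for binding partners and 7 and 3 for inhibitory signalling genes (4 and 6 under TPM). In CAR macrophages against BMDM, where 39.2% of all tested genes were called higher and 37.8% lower, they were 2 and 16, 5 and 11, 4 and 6, 2 and 6, 7 and 9, and 1 and 9 in the same order of lists. In Hoxb8 macrophages against BMDM, 32.0% of all tested genes were called higher and 38.3% lower. Counts were 5 and 10, 7 and 7, 5 and 4, 5 and 4, 5 and 11, and 1 and 7 in that order. List counts under TPM are not given for these comparisons with BMDM.

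Genes with the pattern most like each of the 9 were ranked by the root mean square difference of centred log2(FPKM + 1) means over the 5 groups, among 11430 genes, as a description. For Cd274 the nearest was the interferon-stimulated gene Isg15, at 0.17 log2 units, with means of 282 FPKM in CAR, 146 in control-CAR and 149 in Hoxb8 macrophages, 89.7 in BMDM and 3.6 in progenitor cells, and it was the only gene within 0.25. The next were Orm1 (0.28) and Phlda1 (0.29). For Sirpa the nearest were Alas1 (0.12), Zc3h12a (0.13) and Fcgr4 (0.13). Lilrb4a was nearest to Ahnak (0.14), Smpdl3b (0.18) and Cd52 (0.19), and Pirb to Tlr2 (0.23), Abca1 (0.23) and C3ar1 (0.24), with 3 and 4 genes within 0.25. Havcr2 had Ly96 (0.13), Mdm2 (0.14) and Rabgef1 (0.14) as its nearest. The flatter genes had many near neighbours, 1061 within 0.25 for Cd47 (Mgat1 first), 309 for Cd200r1 (Zswim8 first), 247 for Lair1 (Ttc12 first) and 134 for Pdcd1lg2 (Sppl2a first).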

How the data were processed

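RNA of 15 libraries was prepared with TRIzol, oligo(dT) selection and random hexamer priming, per the labels' protocols. HISAT2, Bowtie2, RSEM 1.3.1, DESeq2 1.4.5 and build GRCm38.p6 are named per the submitters' processing notes; what each did, the annotation and the strandedness of counting are not stated there or in the labels. The deposited table holds estimated counts, FPKM and TPM per gene and library, made by the authors and named per the file headers; 15 columns of group averages were not used. Between 94.5% and 96.1% of the estimated counts were whole, and they were rounded. Libraries held 16962839 to 19221681 estimated counts, which limits precision for genes with few counts.

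From these, 1 fit of edgeR 4.0.16 (R 4.3.3) over all 15 libraries, with TMM and a mean per group, tested 6 comparisons on the 11793 of 17030 genes with at least 1 FPKM in at least 3 libraries; the other 5237 were not tested. The tests were two-sided, adjusted by Benjamini-Hochberg over all tested genes and called under 0.05. The SE is the log2 change over the square root of its F. Alternatives used DESeq2 1.42.0 and limma 3.58.1 on log2 values of FPKM or TPM, other filters, a replicate block, and each replicate left out. A count of 0 was bounded with 3 counts per library. The edgeR steps were tested on simulated counts in which few genes changed. This could not test the scaling where most genes were called, as in CAR against control-CAR macrophages.

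The 9 genes and the lists were chosen with earlier results of these data known. All 9 are described; of each list, up to 5 called genes with the largest change in CAR against control-CAR macrophages are named, and for each of the 9 the 3 genes of most similar pattern. Some genes that this rule names are not reported here. Of the IDs, 16978 of 17030 matched RefSeq, the source of coordinates and promoters.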

Additional observations from a re-analysis of the deposited data

How the results depend on the processing

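Upper-quartile scaling, no filter, a filter of 5 FPKM, only the 6 libraries compared and a replicate block each left all 12 counts of the 9 genes called higher or lower, 2 for each of the 6 comparisons, within 1.5 times of the value in the report. Counts that moved were as follows. In CAR against control-CAR macrophages, 7 were higher under TPM against 3 in the report, and 3 were lower under library totals and under FPKM with a pseudocount of 1 or 0.1, and 2 under TPM, against 5. In control-CAR against Hoxb8 macrophages 1 was higher under library totals, DESeq2, FPKM with either pseudocount, TPM and quantile normalisation, against 0. In Hoxb8 macrophages against BMDM 6 were lower under TPM against 3, and against progenitors 1 was lower under library totals, FPKM with either pseudocount and TPM, against 0. Leaving out a replicate gave 2 to 3 higher and 5 lower in CAR against control-CAR macrophages, 4 to 5 higher and 3 lower against BMDM, and 3 to 4 higher and 3 lower in Hoxb8 macrophages against BMDM, and changed no count in the other 3 comparisons. The cause was not tested where a scaling changed a call.

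Directions that turned are given as log2 changes under library totals, FPKM with a pseudocount of 1 and of 0.1, and TPM, in that order. Cd200r1 stood at -0.34, -0.32, -0.34 and -0.61 in Hoxb8 macrophages against progenitors. Cd47 stood at 0.10, 0.037, 0.037 and 0.28 in CAR against control-CAR macrophages and at -0.11, -0.086, -0.086 and -0.26 in Hoxb8 macrophages against BMDM, and Sirpa at -0.052, -0.045, -0.045 and -0.22 in the last comparison. Lair1 stood at 0.0081, 0.030, 0.032 and 0.043 in control-CAR against Hoxb8 macrophages, and under library totals and TPM at 0.044 and 0.22 in CAR against control-CAR macrophages. TPM alone turned Pirb in CAR against control-CAR macrophages (0.11) and Cd47 in Hoxb8 macrophages against progenitors (-0.061). Quantile normalisation turned Cd274 in control-CAR against Hoxb8 macrophages (0.0051), Pdcd1lg2 (0.075) and Sirpa (-0.12) in Hoxb8 macrophages against BMDM, and Havcr2 (-0.023), Cd276 (-0.29) and Pdcd1 (-0.025) in CAR against control-CAR macrophages.

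Changes near 0 also turned with a replicate left out. For Cd47 in CAR macrophages against BMDM the value was -4.01e-05 without CAR replicate 3, -0.023 without BMDM replicate 3, and -0.015 under DESeq2. For Havcr2 in CAR against control-CAR macrophages it was -0.0012 without CAR replicate 2, -0.065 without control-CAR replicate 2, and -0.013 with no filter. In control-CAR against Hoxb8 macrophages, Lair1 stood at 0.032 without control-CAR replicate 1, and its range with a replicate left out ran from -0.10 to 0.040. For Lilrb4a this range ran from -0.014 to 0.080 and for Pdcd1lg2 from -0.017 to 0.17.

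Of all tested genes, the report's settings gave 4946 higher and 4334 lower in CAR against control-CAR macrophages, against 8018 and 1933 under TPM, with 2770 lower under library totals, 2770 under FPKM and 2766 with a pseudocount of 0.1. Hoxb8 macrophages against progenitors gave 5269 and 4673, against 3123 and 7195 under library totals, 3045 and 7173 under FPKM, 3120 and 7182 with a pseudocount of 0.1, and 2544 and 7848 under TPM. Under TPM, BMDM against progenitors gave 3454 and 7271, against 5497 and 4797, and Hoxb8 macrophages against BMDM 1815 and 7172, against 3776 and 4516. Control-CAR against Hoxb8 macrophages gave 85 and 224, against 278 higher under library totals, 248 higher under FPKM, 241 and 137 with a pseudocount of 0.1, 310 and 147 under TPM, 12 and 85 with only the 6 libraries, and 13 to 75 and 93 to 241 with a replicate left out, the lowest without Hoxb8 replicate 1.

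Libraries with the same replicate number did not deviate together (correlations from -0.0876 to 0.0156), and the replicate block gave the same calls for the 9 genes, with Cd274 at 0.66 in CAR against control-CAR macrophages. With 3 libraries a group that may share a culture, small changes depend on the spread between them. Genes with few counts, such as Pdcd1, are limited by depth. Counts of near copies (Pirb and Pira genes, Lilrb4a and Lilr4b, Sirpa and Sirpb1 genes, the Cd200r family) are uncertain.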
